A study of Homo sapiens with 12 samples.

Results

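The genes described here are 52 genes that encode proteins of the cytosolic ribosome, 32 of the large subunit and 20 of the small subunit, measured in HepG2 cells, a human liver cancer line. They were taken by name: the gene identifiers of each library were matched to symbols, all 52 symbols were found among 47634 identifiers, and all 52 were among the 11051 genes with enough counts to be tested. The 12 libraries fall into 4 groups of 3: wild type cells left untreated, wild type cells given copper for 24 h, ATP7B knockout (KO) cells left untreated, and ATP7B KO cells given copper for 24 h. ATP7B moves copper out of hepatocytes, and its loss causes Wilson disease. The labels name 1 KO line, call the replicates biological, and give neither the place of the edit nor the copper dose. Libraries were made from 100 ng of RNA with a 3′ tag method (QuantSeq), which reads a fragment near the end of each polyadenylated RNA.

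A ribosome holds most of its proteins in equal number, so cells make them together, and their mRNAs are among the most abundant and shortest in a cell. Most of these mRNAs begin with a 5′ terminal oligopyrimidine (TOP) tract, a C at the start followed by a run of C and T, through which mTOR signalling and the binding protein LARP1 control how the mRNA is translated and stored. Many processed pseudogenes, copies of these mRNAs inserted elsewhere in the genome, carry nearly the same sequence.

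The start of the transcript carries the tract that most of the family shares. It is shown for some members, chosen by hand and all with such a tract. RPS7, RPL10A, RPL15 and RPS15 had no TOP start among the starts counted below and are not shown. Each line gives 15 bases before and 15 bases from the annotated start, from RefSeq on GRCh38.p14, with the pyrimidine tract from the start on in capitals. The first 6 belong to members that were more than 8-fold lower in 2 libraries of untreated KO cells than in the third: RPLP0 at chr12:120201097-120201126 (minus strand), RPS21 at chr20:62387088-62387117 (plus strand), RPS13 at chr11:17077653-17077682 (minus strand), RPS12 at chr6:132814554-132814583 (plus strand), RPS24 at chr10:78033848-78033877 (plus strand) and RPL26 at chr17:8383179-8383208 (minus strand).
RPLP0: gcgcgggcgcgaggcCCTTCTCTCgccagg
RPS21: ggtgactagctgcttCCTTTCTCTCTCgcg
RPS13: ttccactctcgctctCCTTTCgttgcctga
RPS12: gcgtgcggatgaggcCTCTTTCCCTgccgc
RPS24: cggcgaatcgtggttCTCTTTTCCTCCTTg
RPL26: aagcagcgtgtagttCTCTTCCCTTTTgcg

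The next 5 are starts of members that were higher, or as high, in those same 2 libraries: RPL22 at chr1:6199581-6199610 (minus strand), RPL35 at chr9:124861943-124861972 (minus strand), RPS14 at chr5:150449725-150449754 (minus strand), RPL13 at chr16:89560667-89560696 (plus strand) and RPS6 at chr9:19380222-19380251 (minus strand). The last line is RPS27L at chr15:63157463-63157492 (minus strand), a paralog of RPS27 with no such tract.
RPL22: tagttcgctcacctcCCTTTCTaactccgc
RPL35: agccccgcctacttcCTCTTTCCCTCggag
RPS14: ccgccccctcccactCTCTCTTTCCggtgt
RPL13: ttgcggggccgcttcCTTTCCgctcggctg
RPS6: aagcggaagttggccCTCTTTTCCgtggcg
RPS27L: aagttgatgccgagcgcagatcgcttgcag

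A start was counted as TOP where the first base was C and the next 4 were each C or T, read on the strand of the transcript only. Of the 44 members with a start counted here, 32 had a TOP start at any of their starts. These members have 55 starts, of which 58.2% were TOP, against 4.07% of 35116 starts of all genes. More than 1 start is listed for 8 members, and for these a TOP start was shown ahead of any other. Starts on chromosome 8 were left out for members but not for all genes. Tracts ran from 6 to 14 bases.

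Library totals ran from 976658 to 3829151 counts. Levels are given as CPM (counts per 1000000 counts of the library), in the order replicate 1, 2, 3, and a 3′ tag needs no correction for transcript length. ATP7B itself had 12.7, 13.1 and 12.4 CPM in wild type untreated, 5.34, 3.92 and 3.87 in wild type copper, 9.01, 2.05 and 11.6 in ATP7B KO untreated and 3.92, 4.19 and 6.77 in ATP7B KO copper. A 3′ tag checks a KO label only if it lies in the removed part, which the labels do not give, so these values check nothing. All 8 hepatocyte genes examined were expressed, and their summed level ran from 3671 CPM in KO copper to 18927 CPM in wild type untreated. Of 6 blood cell genes, HBB and CD3E were at 0 in every library, but the others were not. The summed level of the 6 was 1359 to 1479 CPM in wild type untreated and 216 to 248 CPM in KO copper. The summed level of 6 fibroblast and stromal genes ran from 2.77 CPM in KO untreated to 56.9 CPM in KO copper, and none of them was at 0 in every library.

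Replicates did not agree equally well in the 4 groups. Within wild type untreated and within ATP7B KO copper, no member was more than 2-fold from the mean of its group-mates. In wild type copper replicate 1, 16 members were more than 2-fold below the mean of the other 2 libraries and none was as far above, where 14.7% of all genes tested were below and 5.25% above. ATP7B KO untreated was split: replicates 1 and 2 were nearer to each other (chi-square per degree of freedom 6.17) than either was to replicate 3 (55.9 and 46.7). In replicate 3, 34 members were more than 2-fold above the other 2 libraries, and 2 as far below, where 28.0% of all genes were above. The labels do not say which KO untreated libraries stand for the group, so results are given both without replicate 3 and without the 3 libraries with the lowest share of counts on the members, namely wild type copper replicate 1 and KO untreated replicates 1 and 2. Sample weights estimated from the whole table were lowest for ATP7B KO untreated replicate 3 (0.0657) and next lowest for wild type copper replicate 1 (0.252). The 3 low libraries also had the lowest totals, 1873703, 1443372 and 976658 counts, and the part of depth or RNA quality in these differences was not tested.

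The share of a library's counts that fell on the 52 genes was 8.13%, 8.48% and 7.87% in wild type untreated (mean 8.16% ± 0.31, SD, n = 3) and 5.78%, 6.42% and 7.12% in wild type copper (6.44% ± 0.67, SD, n = 3). In ATP7B KO untreated it was 3.47%, 3.05% and 6.46% (4.33% ± 1.86, SD, n = 3), and in ATP7B KO copper 6.54%, 6.03% and 6.15% (6.24% ± 0.27, SD, n = 3). All wild type untreated libraries lay above the other 9. Replicates 1 and 2 of ATP7B KO untreated lay below all others, while replicate 3 of that group lay among the KO copper libraries. Wilson 95% intervals, which cover counting error only, ran from 3.02% to 3.09% in the shallowest library and from 8.45% to 8.51% in the deepest. In bulk RNA, fewer cells that express these genes and less of their RNA per cell cannot be told apart.

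**Figure D1:**
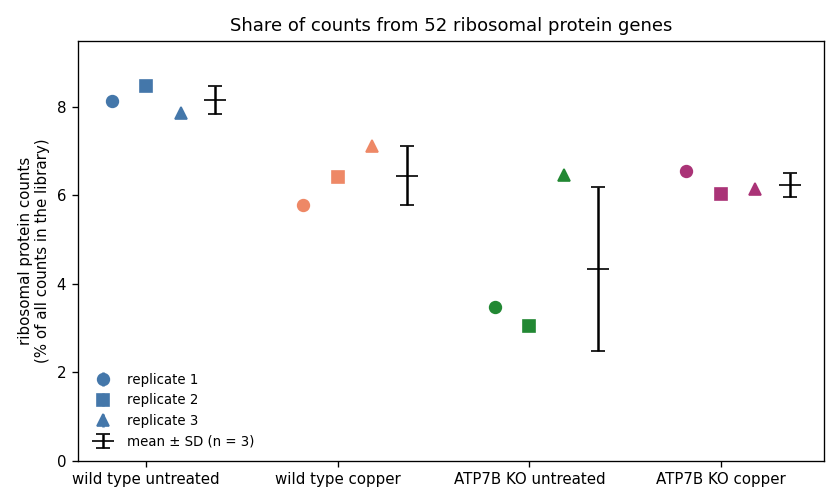
Share of all counts in a library that fell on the 52 ribosomal protein genes (vertical axis, percent), by group; circle, square and triangle are replicates 1, 2 and 3 with Wilson 95% intervals, and the black bar is the mean ± SD of 3 libraries. ATP7B KO untreated replicates 1 and 2 sit at 3.47% and 3.05%, and replicate 3 of that group sits at 6.46%.

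The members did not move as 1 block in the 2 low libraries. Against the mean of the wild type untreated libraries, the median member was at -2.11 (log2) in ATP7B KO untreated replicate 1 and at -2.07 in replicate 2, with a wide spread over members (SD 1.41 and 1.35, against 0.17 in replicate 3). Values ran from -5.67 for RPS21 to 0.87 for RPL8 in replicate 1, and from -4.71 for RPS21 to 0.79 for RPL22 in replicate 2. Of the 52 members, 20 were at least 4-fold lower in both libraries than in replicate 3, and 5 were higher in both: RPL8, RPL13, RPL22, RPL35 and RPS14. Of the 20, 19 have a start counted here and 15 of those a TOP start. Of the 5, 4 have a start counted here and all 4 are TOP. The 5 most abundant members of a library made up 47.8% and 45.8% of its member counts in these 2 libraries, and between 31.8% and 38.2% in the other 10. The small subunit's share of member counts was 40.5% and 42.0% there, and between 47.6% and 55.0% elsewhere.

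**Figure D2:**
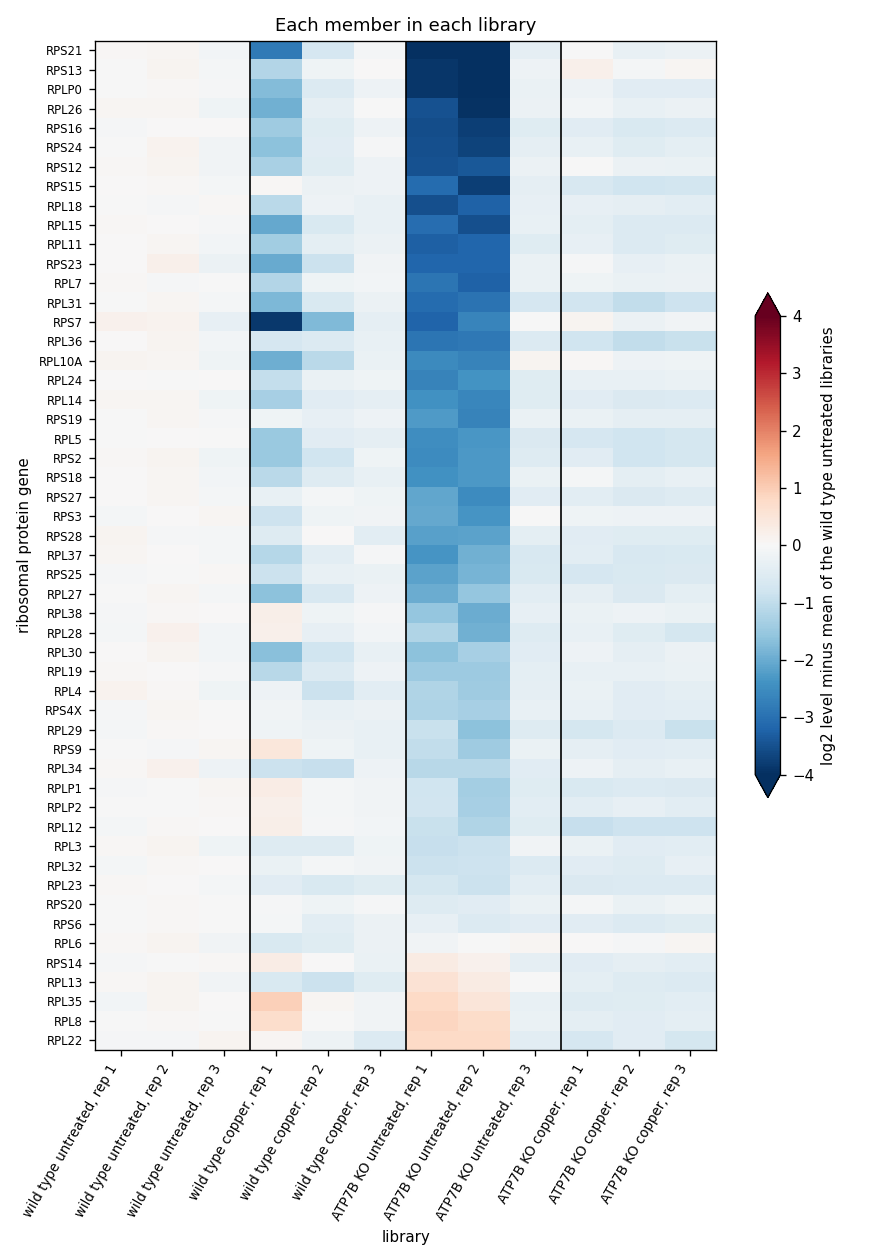
Level of each of the 52 members (vertical axis) in each of the 12 libraries (horizontal axis), as log2 level minus the mean of the 3 wild type untreated libraries; blue is lower, red is higher, the colour scale stops at 4 in each direction, and members are ordered by the mean of ATP7B KO untreated replicates 1 and 2. Those 2 libraries run from -5.67 for RPS21 up to 0.87 for RPL8, and wild type copper replicate 1 runs from -3.84 for RPS7 to 0.94 for RPL35.

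Over all 12 libraries the ratio of a member's highest to its lowest level ran from 1.48 to 54.1, with a median of 5.13. It was over 10 for 13 members and under 2 for 6. The steadiest was RPS20, a small subunit head protein, with 1749, 1816 and 1749 CPM in wild type untreated, 1698, 1558 and 1712 in wild type copper, 1228, 1294 and 1462 in ATP7B KO untreated and 1673, 1466 and 1588 in ATP7B KO copper. RPS14, the small subunit gene whose loss underlies the anaemia of the 5q- syndrome, had 4387, 4512 and 4669.7 CPM in wild type untreated, 5504, 4581 and 3766 in wild type copper, 5617, 5076 and 3557 in ATP7B KO untreated and 3325, 3507 and 3375 in ATP7B KO copper. It was the most abundant member in the 3 low libraries, where its level was higher than in the other 9. In those 9 the most abundant member was RPS12, with 8163, 8471 and 7090.1 CPM in wild type untreated, 3201, 5589 and 6792 in wild type copper, 699.8, 759 and 6733 in ATP7B KO untreated and 7778, 6659 and 6568 in ATP7B KO copper. The RPS12 level in the 2 low KO untreated libraries was more than 4-fold below that in any other library.

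RPS24, which is mutated in some cases of Diamond-Blackfan anaemia, had 5258, 5819.6 and 4768 CPM in wild type untreated, 1697, 3816 and 5107 in wild type copper, 459, 404 and 4069 in ATP7B KO untreated and 4319, 3732 and 3986 in ATP7B KO copper. RPS3, a protein of the mRNA entry channel, had 3747, 3935 and 4128 CPM in wild type untreated, 2192, 3514 and 3562 in wild type copper, 959.6, 765 and 3876 in ATP7B KO untreated and 3514, 3394 and 3415 in ATP7B KO copper. Both were lowest in KO untreated replicates 1 and 2, with wild type copper replicate 1 next, and the other 9 libraries well above. RPL13 had 1808, 1893 and 1602 CPM in wild type untreated, 1148, 964 and 1254 in wild type copper, 2631, 2216 and 1726 in ATP7B KO untreated and 1346, 1237 and 1198 in ATP7B KO copper. It kept another order, highest in the 2 low KO untreated libraries and lowest in wild type copper replicate 2.

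The first comparison asks how these genes differ between untreated KO and untreated wild type cells. Of 52 members 34 fell in ATP7B KO and none rose (edgeR's quasi-likelihood test, adjusted p under 0.05), where 14.0% of all 11051 genes fell and 17.9% rose, 31.9% in all. The median over the members was -1.38 on the log2 scale and the median over all genes -0.02. Of the large subunit 22 of 32 fell, and of the small subunit 12 of 20. All KO libraries lay below all wild type libraries for 42 members, and above for none, where the same held for 19.1% and 25.7% of all genes.

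The size of the difference depends on which KO libraries are used. Without the 3 low libraries, replicate 3 is the only KO untreated library, and its spread is assumed to be that of the other groups. Those 3 were picked by the members' own share of counts, and the libraries kept are also in the fit above. Here and below, calls on members in this fit, and their overlap with calls from all 12 libraries, are therefore not a test of the members. Then 44 of 52 fell and none rose (17.7% and 16.8% of 11955 genes tested in that fit, 34.5% in all), with a median of -0.58, and 33 of the 34 genes called before were among the 44. With replicate 3 left out instead, 46 fell and 3 rose, with a median of -2.20, and 30.2% of all genes fell and 28.8% rose in that fit. Leaving out KO untreated replicate 1 or 2 gave 18 or 16 fallen members, where 8.47% or 8.67% of all genes fell. Leaving out a wild type untreated library gave 20 to 24, where 7.89% to 8.41% of all genes fell. Fitting only the 2 groups compared gave 1, where 4.76% of all genes fell.

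**Figure D3:**
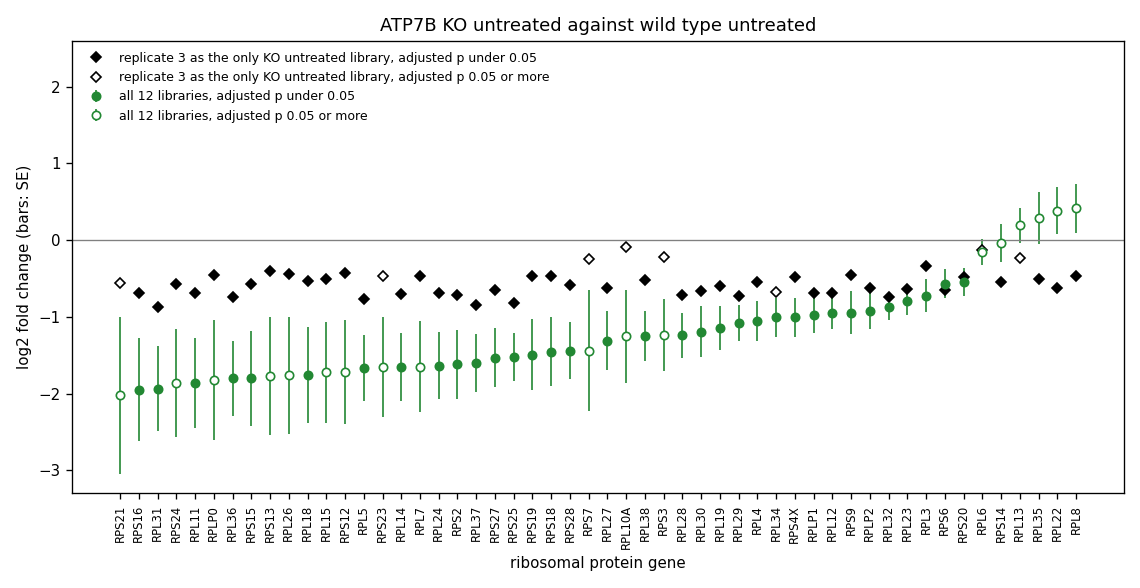
Log2 fold change of each member, ATP7B KO untreated against wild type untreated (vertical axis), with members in rising order. Green circles with SE bars use all 12 libraries, black diamonds use a fit without the 3 low libraries, and filled symbols passed an adjusted p of 0.05; the circles run from -2.03 for RPS21 to 0.41 for RPL8, and the diamonds lie below 0 for each of the 52 members.

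The acidic stalk is the arm of the large subunit that recruits translation factors, with RPLP0 at its base and dimers of RPLP1 and RPLP2 on top. RPLP0 had 2340.1, 2424 and 2285 CPM in wild type untreated, 701, 1613 and 2024 in wild type copper, 157, 140.3 and 1964 in ATP7B KO untreated and 2062, 1724 and 1701 in ATP7B KO copper. It was more than 10-fold lower in 2 KO untreated libraries than in replicate 3, and all 3 lay below wild type untreated. Its difference between KO and wild type untreated did not pass (log2 difference -1.82 ± 0.78, adjusted p = 0.0898). The value was -0.46 in the fit without the 3 libraries, and -4.025 to -1.33 when 1 library was left out. RPLP1 had 3925, 4031 and 4328 CPM in wild type untreated, 5068, 3879 and 3729 in wild type copper, 2364, 1592 and 2909 in ATP7B KO untreated and 2678, 2798 and 2714 in ATP7B KO copper. Every KO library lay below every wild type library, with or without copper, and RPLP1 fell in untreated KO cells (log2 difference -0.97 ± 0.24, adjusted p = 0.0105). RPLP2 fell too (log2 difference -0.93 ± 0.24, adjusted p = 0.0119).

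RPL5 and RPL11 bind 5S ribosomal RNA and carry it into the large subunit, and outside the ribosome they bind MDM2, the ubiquitin ligase of p53. RPL5 had 1940.0, 1982 and 1907 CPM in wild type untreated, 698, 1426 and 1503 in wild type copper, 347, 386 and 1311 in ATP7B KO untreated and 1208, 1128 and 1202 in ATP7B KO copper. Every KO library, with or without copper, lay below every wild type untreated library, and RPL5 fell in untreated KO cells (log2 difference -1.67 ± 0.43, adjusted p = 0.0136). RPL11 had 1146, 1185 and 1047 CPM in wild type untreated, 432, 866 and 955 in wild type copper, 117, 125 and 803 in ATP7B KO untreated and 892, 769 and 795 in ATP7B KO copper. Its level in the 2 low KO untreated libraries was more than 4-fold below that in replicate 3, which lay below wild type untreated, and RPL11 fell (log2 difference -1.86 ± 0.59, adjusted p = 0.031). In the fit without the 3 libraries the value was -0.77 for RPL5 and -0.69 for RPL11. Leaving out 1 library gave -2.46 to -1.37 for RPL5 and -3.27 to -1.46 for RPL11.

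RPL31, which sits near the exit of the peptide tunnel, had 2003, 2139.6 and 1911 CPM in wild type untreated, 576, 1334 and 1726 in wild type copper, 238, 259 and 1273 in ATP7B KO untreated and 1181, 1009.8 and 1141 in ATP7B KO copper. Every KO library lay below every wild type untreated library, and RPL31 fell in untreated KO cells (log2 difference -1.94 ± 0.56, adjusted p = 0.0205). The 4 smallest adjusted p values belonged to RPL32 (log2 difference -0.87 ± 0.17, adjusted p = 0.00399), RPS25 (log2 difference -1.52 ± 0.32, adjusted p = 0.0048), RPL29 (log2 difference -1.08 ± 0.23, adjusted p = 0.00544) and RPL12 (log2 difference -0.96 ± 0.21, adjusted p = 0.00546). RPL32 had 913, 991 and 966 CPM in wild type untreated, 788, 906 and 872 in wild type copper, 527, 533 and 656 in ATP7B KO untreated and 704, 669 and 761 in ATP7B KO copper. Its KO untreated libraries spread less than those of most members and none reached the wild type level.

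In the small subunit, RPS21 had the lowest fitted value of all members, with 2053, 2099 and 1837 CPM in wild type untreated, 283, 1248 and 1902 in wild type copper, 38.8, 75.8 and 1559 in ATP7B KO untreated and 1984, 1606 and 1705 in ATP7B KO copper. The 2 low KO untreated libraries were more than 10-fold below every other library but wild type copper replicate 1, and KO untreated replicate 3 lay below wild type untreated. The difference did not pass (log2 difference -2.03 ± 1.02, adjusted p = 0.142). Its value was -0.56 without the 3 libraries and -5.20 to -1.48 when 1 library was left out. RPS13 had 536, 578 and 506 CPM in wild type untreated, 239, 474 and 543 in wild type copper, 36.0, 26.6 and 469 in ATP7B KO untreated and 615, 513 and 571 in ATP7B KO copper. Apart from the 3 libraries, its levels ran from 469 to 615 CPM, and the difference did not pass (log2 difference -1.77 ± 0.77, adjusted p = 0.0952).

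RPS16, whose tail reaches the decoding site, had 1235, 1296 and 1286 CPM in wild type untreated, 471, 915 and 1114 in wild type copper, 108, 92.2 and 909 in ATP7B KO untreated and 919.6, 832 and 865 in ATP7B KO copper. The KO untreated libraries all lay below wild type untreated, and RPS16 fell (log2 difference -1.95 ± 0.67, adjusted p = 0.0427). RPS19, the gene most often mutated in Diamond-Blackfan anaemia, had 4201, 4543 and 4096 CPM in wild type untreated, 3758, 3396 and 3744 in wild type copper, 887, 672 and 3547 in ATP7B KO untreated and 3554, 3299 and 3355 in ATP7B KO copper. Every KO library, with or without copper, lay below every wild type untreated library, and RPS19 fell in untreated KO cells (log2 difference -1.49 ± 0.46, adjusted p = 0.0283). RPS6, the small subunit protein phosphorylated by S6 kinase, had 1801, 1908 and 1806 CPM in wild type untreated, 1753, 1381 and 1556 in wild type copper, 1457, 1245 and 1351 in ATP7B KO untreated and 1336, 1246 and 1300.3 in ATP7B KO copper. Its KO untreated libraries lay close together and below wild type untreated, and RPS6 fell with all libraries (log2 difference -0.57 ± 0.19, adjusted p = 0.0412). Its value was -0.65 without the 3 libraries and -0.65 to -0.49 when 1 library was left out.

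At the other end, 3 members had the highest fitted values. RPL8, a protein next to the peptidyl transferase centre, had 2062, 2164 and 2055 CPM in wild type untreated, 3432, 2051 and 1915 in wild type copper, 3816, 3446 and 1734 in ATP7B KO untreated and 1593, 1522 and 1613 in ATP7B KO copper. KO untreated replicates 1 and 2 and wild type copper replicate 1 were its 3 highest libraries, and KO untreated replicate 3 was below wild type untreated. Its difference did not pass (log2 difference 0.41 ± 0.32, adjusted p = 0.337). The RPL8 value was -0.47 without the 3 libraries, and 0.18 to 0.75 when 1 library was left out. RPL22, a large subunit protein that mice survive without, had 237, 235 and 264 CPM in wild type untreated, 257, 214 and 166 in wild type copper, 427, 422 and 182 in ATP7B KO untreated and 155, 177 and 150.1 in ATP7B KO copper. It was highest in KO untreated replicates 1 and 2. RPL35, which sits at the tunnel exit, had 1107, 1279.7 and 1192 CPM in wild type untreated, 2289, 1266 and 1085 in wild type copper, 2083, 1665 and 962 in ATP7B KO untreated and 827, 856 and 892 in ATP7B KO copper. Its 3 highest libraries were the same 3. RPL22 and RPL35 did not pass (log2 difference 0.38 ± 0.31, adjusted p = 0.348, and log2 difference 0.29 ± 0.33, adjusted p = 0.521). Their values were -0.63 and -0.51 without the 3 libraries. Leaving out 1 library gave 0.17 to 0.75 for RPL22 and 0.01 to 0.61 for RPL35.

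**Figure D4:**
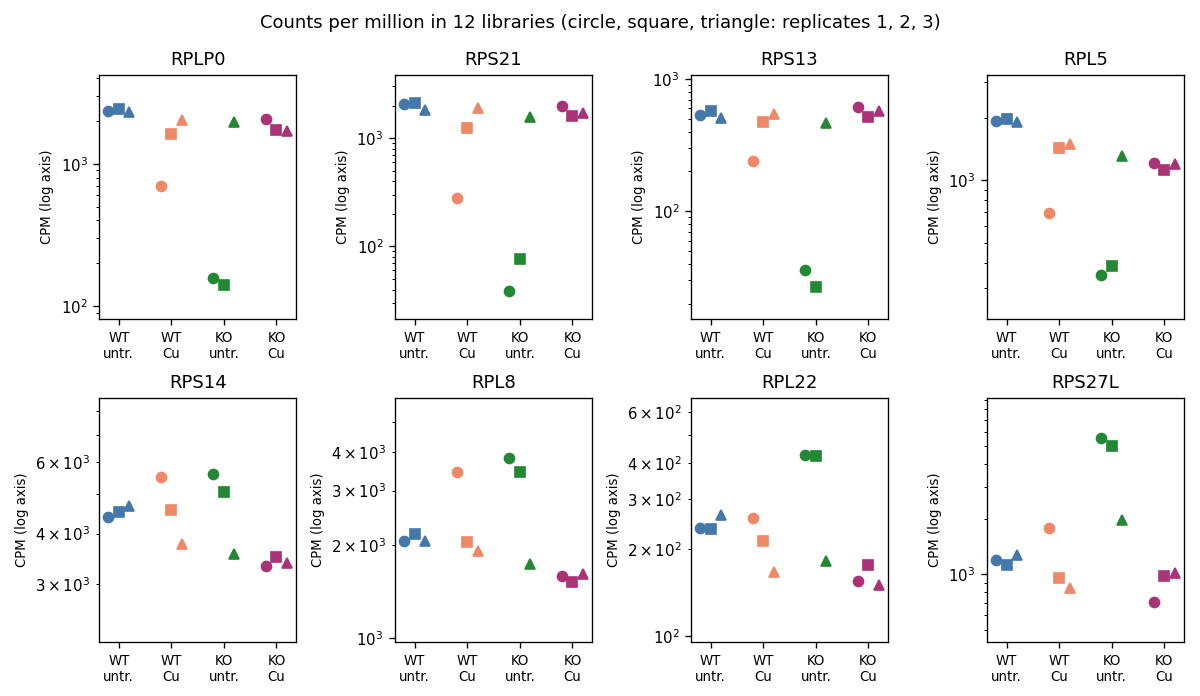
Level of 7 members and of the paralog RPS27L in each library, in CPM on a log axis that differs between panels, by group (WT is wild type, KO is ATP7B KO, untr. is untreated and Cu is copper for 24 h); circle, square and triangle are replicates 1, 2 and 3. RPLP0, RPS21, RPS13 and RPL5 are lowest in KO untreated replicates 1 and 2, whereas RPL22 and RPS27L are highest there.

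The second comparison asks what copper does in wild type cells. No member passed in wild type copper against wild type untreated by edgeR, where 14.9% of all genes did, 8.23% risen and 6.68% fallen. At an unadjusted p under 0.05 there were 5 members, and DESeq2 called 2, RPL13 and RPL23, both lower (8.45% of all genes). The fitted value was negative for 44 members, and the median was -0.44 against -0.03 over all genes. All copper libraries lay below all untreated libraries for 32 members and above for none, where the same held for 27.1% and 21.3% of all genes. In the fit without the 3 libraries 21 members fell and none rose (19.6% and 20.4% of all genes, 4784 of 11955 in all), with a median of -0.23. Without KO untreated replicate 3, which is in neither group, 11 members fell, where 15.5% of all genes did, and without wild type copper replicate 3, 2 fell, where 5.15% of all genes did. RNA of the mitochondrion and the nucleus moved with copper as well: 10 of 13 mitochondrial genes rose, their share going from between 2.97% and 3.80% of counts to between 6.58% and 8.59%, and 2 of 5 nuclear-retained RNAs rose. In the fit without the 3 libraries 13 of 13 and 5 of 5 rose. Their part in the values of the members was not tested.

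RPS7, a small subunit protein also known to bind MDM2, had the lowest fitted value under copper, with 621, 602 and 440.0 CPM in wild type untreated, 37.9, 161 and 431 in wild type copper, 59.6, 87.0 and 538 in ATP7B KO untreated and 592, 466 and 492 in ATP7B KO copper. Its wild type copper libraries spread more than 10-fold, all of them below wild type untreated, and the difference did not pass (log2 difference -1.38 ± 0.79, adjusted p = 0.266). RPL10A, of the mobile L1 stalk, had 555, 538 and 453 CPM in wild type untreated, 131, 244 and 428 in wild type copper, 87.3, 80.9 and 556 in ATP7B KO untreated and 525, 446 and 457 in ATP7B KO copper. All copper libraries of wild type cells lay below the untreated ones, and the difference did not pass (log2 difference -0.92 ± 0.60, adjusted p = 0.33). RPS23, at the decoding centre, had 332, 377 and 281 CPM in wild type untreated, 80.1, 179.5 and 295 in wild type copper, 36.0, 35.8 and 276 in ATP7B KO untreated and 318, 263 and 273 in ATP7B KO copper. Wild type copper replicate 3 overlapped the untreated libraries, and the difference did not pass (log2 difference -0.81 ± 0.64, adjusted p = 0.418).

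The 3 highest fitted values under copper were 0.07 for RPLP1, 0.27 for RPL8 and 0.41 for RPL35, none past the threshold (adjusted p = 0.867, 0.614 and 0.44). All 3 turned negative without wild type copper replicate 1. RPLP0 (log2 difference -0.68 ± 0.76, adjusted p = 0.583), RPL5 (log2 difference -0.66 ± 0.42, adjusted p = 0.317), RPL11 (log2 difference -0.56 ± 0.57, adjusted p = 0.541), RPS6 (log2 difference -0.21 ± 0.19, adjusted p = 0.505) and RPS19 (log2 difference -0.21 ± 0.45, adjusted p = 0.797) did not pass. In the fit without the 3 libraries the values were -0.35 for RPL5, -0.25 for RPL11, -0.31 for RPLP0, -0.26 for RPS6 and -0.20 for RPS19.

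The third comparison asks what copper does in ATP7B KO cells, where 7 members rose and 2 fell, against 15.2% of all genes risen and 18.5% fallen, 33.7% in all. RPL19, RPL24, RPL30, RPL34, RPL37, RPL38 and RPS25 rose, with fitted values from 0.70 for RPL34 to 1.35 for RPL24. RPL22 (log2 difference -0.996 ± 0.31, adjusted p = 0.0269) and RPL13 (log2 difference -0.69 ± 0.23, adjusted p = 0.0366) fell. The median over members was 0.95, against 0.01 over all genes. All copper libraries lay above all untreated ones for 11 members and below for 5, where the same held for 19.1% and 25.1% of all genes.

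This count rests on single libraries and on the scaling. Total counts with no scaling factor gave 0 risen and 3 fallen, where 11.6% of all genes rose and 22.5% fell, a scale on which the median of all genes shifts by -0.12. Leaving out either low KO untreated library, or any KO copper library, gave 0 calls, where 20.7% to 26.8% of all genes passed. Leaving out KO untreated replicate 3 gave 41 risen and 5 fallen, where 29.9% of all genes rose and 28.2% fell. Leaving out a wild type untreated library or wild type copper replicate 2 gave 2 to 4 calls in all, where 28.6% to 29.8% of all genes passed. With the 3 libraries out, 5 members rose and none fell (19.1% and 20.5% of all genes, 39.6% in all), with a median of 0.12, and 2 of the 5, RPL24 and RPL30, were among the 9. Of the mitochondrial genes 6 of 13 rose with copper in KO cells, their share going from 5.82%, 8.85% and 6.64% to between 8.34% and 9.46%, and 4 of 5 nuclear-retained RNAs rose. Without the 3 libraries the median was 0.75 over the mitochondrial genes and 0.90 over the nuclear-retained RNAs. The part of these RNAs in the values of the members was not tested.

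RPL24, a large subunit protein that bridges to the small subunit, had 417, 415 and 417 CPM in wild type untreated, 213, 346 and 372 in wild type copper, 65.1, 78.8 and 298 in ATP7B KO untreated and 339.8, 339 and 349 in ATP7B KO copper. KO copper libraries lay above all KO untreated libraries and below wild type untreated, and RPL24 rose with copper in KO cells (log2 difference 1.35 ± 0.44, adjusted p = 0.0313). RPL26, a large subunit protein known to bind the p53 mRNA, had 1673, 1688 and 1413 CPM in wild type untreated, 423, 1226 and 1561 in wild type copper, 143, 101 and 1344 in ATP7B KO untreated and 1468, 1281 and 1360.0 in ATP7B KO copper. Its KO copper libraries overlapped KO untreated replicate 3, and the difference did not pass (log2 difference 1.54 ± 0.75, adjusted p = 0.129).

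RPS21 (log2 difference 1.84 ± 1.01, adjusted p = 0.174) and RPS13 (log2 difference 1.83 ± 0.77, adjusted p = 0.0842) had the highest fitted values with copper in KO cells and did not pass, although all their KO copper libraries lay above all their KO untreated libraries. RPLP0 (log2 difference 1.45 ± 0.77, adjusted p = 0.159), RPL5 (log2 difference 0.94 ± 0.43, adjusted p = 0.105), RPL11 (log2 difference 1.39 ± 0.58, adjusted p = 0.0811), RPS19 (log2 difference 1.16 ± 0.46, adjusted p = 0.0692) and RPS6 (log2 difference 0.05 ± 0.19, adjusted p = 0.853) did not pass either. RPL8 (log2 difference -0.83 ± 0.33, adjusted p = 0.0665) and RPL35 (log2 difference -0.77 ± 0.33, adjusted p = 0.0916) had KO copper libraries that all lay below KO untreated, and did not pass.

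Between KO copper and wild type copper, RPL12 fell and no member rose, where 8.03% of all genes fell and 5.77% rose, 13.8% in all. RPL12, at the base of the stalk, had 1103, 1202 and 1159 CPM in wild type untreated, 1370.0, 1126 and 1079.8 in wild type copper, 628, 506 and 821 in ATP7B KO untreated and 604, 649 and 654 in ATP7B KO copper. Every KO library lay below every wild type library, with or without copper, and under copper the difference passed (log2 difference -0.94 ± 0.21, adjusted p = 0.0105). Its value was -0.88 in the fit without the 3 libraries, and no member passed without KO copper replicate 1 or replicate 3, where 5.88% and 6.34% of all genes did. All KO copper libraries lay below all wild type copper libraries for 15 members and above for 3, RPL6, RPL10A and RPS7, where the same held for 2206 and for 26.4% of all 11051 genes.

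The median member differed by 0.01 between the copper groups, against 0.05 over all genes. Next to RPL12, the lowest fitted values were those of RPL35 (log2 difference -0.89 ± 0.34, adjusted p = 0.0967) and RPL8 (log2 difference -0.69 ± 0.32, adjusted p = 0.182), and the highest those of RPS7 (log2 difference 1.27 ± 0.79, adjusted p = 0.311), RPL10A (log2 difference 0.80 ± 0.60, adjusted p = 0.407) and RPS21 (log2 difference 0.60 ± 0.99, adjusted p = 0.728). With the 3 libraries out, 24 members fell and 1, RPL6, rose (20.6% and 17.3% of all genes, 37.9% in all), with a median of -0.21. Without KO untreated replicate 3, which is in neither group, 12 members passed, all lower, where 17.4% of all genes were lower. Without KO untreated replicate 2, 3 passed, all lower, where 9.63% of all genes were lower.

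The difference between the copper effects, KO minus wild type, passed for no member by edgeR, where 4.93% of all genes passed, 1.26% higher and 3.67% lower. At an unadjusted p under 0.05 there were 29 members, and DESeq2 called 12, all higher (4.96% of all genes). The median was 1.37 against 0.02 over all genes. The highest fitted values were those of RPS7 (log2 difference 2.71 ± 1.11, adjusted p = 0.123), RPS21 (log2 difference 2.63 ± 1.41, adjusted p = 0.205) and RPS23 (log2 difference 2.25 ± 0.91, adjusted p = 0.119), and the lowest those of RPL35 (log2 difference -1.18 ± 0.47, adjusted p = 0.117), RPL8 (log2 difference -1.10 ± 0.46, adjusted p = 0.127) and RPL22 (log2 difference -0.82 ± 0.43, adjusted p = 0.2). In the fit without the 3 libraries 10 members passed, all higher (3.78% of all genes were higher and 4.99% lower, 8.77% in all), with a median of 0.35. Without KO untreated replicate 3, 40 were higher and 4 lower, where 25.7% of all genes were higher and 25.8% lower. Without wild type copper replicate 3, 3 were higher, where 1.68% of all genes were.

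Of 7 paralogs, genes closely related to a member, 4 were tested. RPS27L, the paralog of RPS27 and a known p53 target, had 1197, 1124 and 1279 CPM in wild type untreated, 1801, 956 and 844 in wild type copper, 5556, 5059 and 1982 in ATP7B KO untreated and 709, 984 and 1013 in ATP7B KO copper. It was highest in the 2 KO untreated libraries in which most members were lowest, and replicate 3 also lay above every wild type untreated library. RPS27L rose in KO untreated cells (log2 difference 1.71 ± 0.40, adjusted p = 0.00864), fell with copper in KO cells (log2 difference -2.13 ± 0.41, adjusted p = 0.00235), and its copper effects differed between the lines (log2 difference -2.16 ± 0.56, adjusted p = 0.0481). RPS27 had 354, 366 and 329.9 CPM in wild type untreated, 284, 333 and 309 in wild type copper, 81.8, 60.4 and 257 in ATP7B KO untreated and 258, 234 and 242 in ATP7B KO copper, with its lowest levels in the same 2 libraries, and fell in untreated KO cells (log2 difference -1.53 ± 0.38, adjusted p = 0.0114).

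RPL22L1, the paralog of RPL22, had 33.2, 37.6 and 27.5 CPM in wild type untreated, 4.80, 8.28 and 20.5 in wild type copper, 15.2, 10.2 and 44.2 in ATP7B KO untreated and 54.9, 44.0 and 48.6 in ATP7B KO copper. It was higher in KO copper than in wild type copper with no overlap (log2 difference 2.06 ± 0.50, adjusted p = 0.0182). RPL7L1 and RPL26L1 passed in none of the 5 comparisons, and between the untreated groups RPL7L1 (log2 difference 0.53 ± 0.22, adjusted p = 0.0789) and RPL26L1 (log2 difference 0.08 ± 0.30, adjusted p = 0.851) had fitted values above 0.

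Counts of these genes are uncertain where a pseudogene can take their reads. There are 768 pseudogenes named after members among the identifiers, of which 448 had counts, and no source used here says how reads that match several places were counted. Pseudogene counts per 100 member counts were between 4.68 and 5.30 in wild type untreated, 5.71 and 6.64 in wild type copper, and 4.10 and 4.85 in KO copper. In KO untreated they were 11.3, 11.2 and 4.50, and as a share of all counts 0.394%, 0.340% and 0.291%, against 0.380% to 0.425% in wild type untreated.

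Single copies differed. RPS13P2 had 708, 798 and 848 CPM in wild type untreated, 1060.5, 909 and 873 in wild type copper, 1320.5, 1165 and 626 in ATP7B KO untreated and 636, 696 and 734 in ATP7B KO copper. It was highest in the 2 libraries in which RPS13 had 36.0 and 26.6 CPM. RPS15P4 had 562, 662 and 610.4 CPM in wild type untreated, 892, 638 and 686 in wild type copper, 1415, 1324 and 406 in ATP7B KO untreated and 319.8, 329 and 353 in ATP7B KO copper. It too was highest in those libraries, where RPS15 was lowest, at 117 and 71.7 CPM. Other copies went with their parents: RPS21P4 had 6.24, 4.10 and 61.9 CPM in KO untreated, and RPL15P3 had 10.4, 10.2 and 68.7. RPL13P12 went against its parent in the opposite sense, with 418, 466 and 473 CPM in wild type untreated and 69.3, 33.8 and 309 in KO untreated. It was lowest in the 2 libraries in which RPL13 was highest, at 2631 and 2216 CPM. Whether these counts come from the copies or from reads of the parent genes was not tested.

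**Figure D5:**
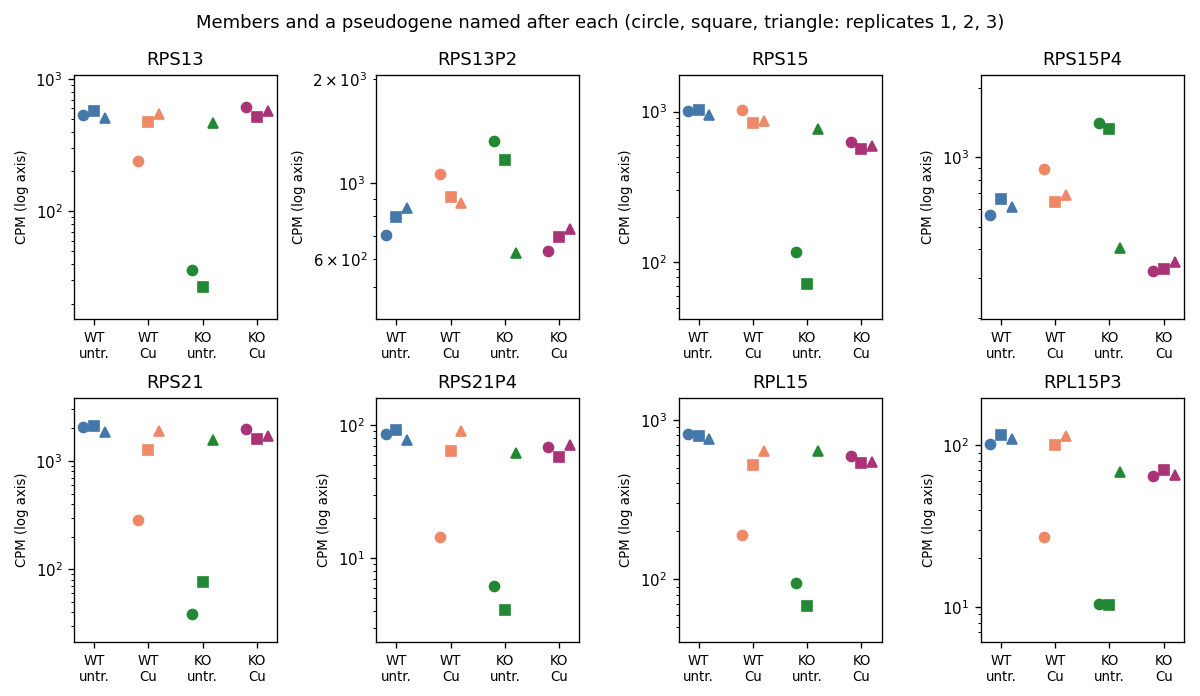
Level of 4 members and of a pseudogene named after each, in CPM on a log axis that differs between panels, by group (WT wild type, KO ATP7B KO, untr. untreated, Cu copper for 24 h); circle, square and triangle are replicates 1, 2 and 3. In KO untreated replicates 1 and 2, RPS13 and RPS15 are at their lowest while RPS13P2 and RPS15P4 are at their highest, and RPS21P4 and RPL15P3 are low together with RPS21 and RPL15.

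Other genes of ribosome synthesis and translation are given for the untreated KO comparison by how many passed in each direction, to be read against the 17.9% of all genes that rose and the 14.0% that fell. These counts depend on single libraries. Leaving out 1 library gave 3 to 21 calls for further ribosomal protein genes, 4 to 18 for TOP genes and 9 to 25 for assembly genes. It gave 8 to 14 for RNA polymerase genes, 2 to 45 for mitochondrial ribosomal proteins and 6 to 11 for p53 targets. In those fits 17.9% to 59.0% of all genes passed. Of 27 further cytosolic ribosomal protein genes tested, 14 fell and none rose, among them RPL39 (log2 difference -0.93 ± 0.19, adjusted p = 0.00487). Of 24 translation factors and other genes with TOP mRNAs, 12 fell and none rose. EEF2, the factor that moves the ribosome along the mRNA (log2 difference -0.95 ± 0.21, adjusted p = 0.00668), PABPC1, the poly(A)-binding protein (log2 difference -0.82 ± 0.20, adjusted p = 0.0104), and NPM1, a nucleolar chaperone (log2 difference -0.72 ± 0.18, adjusted p = 0.0122), fell.

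TPT1, an abundant TOP mRNA, had 2692, 2761 and 2622 CPM in wild type untreated and 419, 461 and 2077 in KO untreated, and fell (log2 difference -1.61 ± 0.51, adjusted p = 0.0317). EEF1A1, which delivers tRNA to the ribosome, had 238, 197 and 285 CPM in wild type untreated and 589.6, 759 and 178 in KO untreated, and did not pass (log2 difference 0.99 ± 0.48, adjusted p = 0.132). The 2 low libraries were thus low for TPT1 and high for EEF1A1.

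Among the genes that build ribosomes, more passed as higher than as lower. Of 37 assembly and rRNA processing genes 18 rose and 2 fell, and of 22 genes of RNA polymerase I and III 7 rose and 3 fell. LSG1, a GTPase of late large subunit assembly (log2 difference 1.41 ± 0.22, adjusted p = 0.00119), NOP56, of the box C/D particle (log2 difference 1.03 ± 0.18, adjusted p = 0.0022), and PES1 (log2 difference 2.27 ± 0.45, adjusted p = 0.00373) rose, while NMD3, the export adaptor of the large subunit, fell (log2 difference -1.15 ± 0.22, adjusted p = 0.00322). NCL, the nucleolar protein nucleolin, had 1933, 2013 and 2048 CPM in wild type untreated, 2755, 2218 and 2096 in wild type copper, 5680.4, 5818 and 3121 in ATP7B KO untreated and 2388, 2603 and 2471 in ATP7B KO copper. It was highest in KO untreated replicates 1 and 2, with replicate 3 next, and rose (log2 difference 1.18 ± 0.27, adjusted p = 0.00761). UBTF, which keeps ribosomal DNA open for RNA polymerase I (log2 difference 1.71 ± 0.32, adjusted p = 0.00293), and POLR1A, the largest subunit of that polymerase (log2 difference 1.80 ± 0.34, adjusted p = 0.00297), rose. Of 74 mitochondrial ribosomal protein genes 6 rose and 7 fell, and of 18 other initiation factors 6 rose and 3 fell.

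Of 22 regulators of TOP mRNAs and of ribosome synthesis, 3 rose and 2 fell. LARP1, which binds the TOP tract, had 145, 136 and 130.0 CPM in wild type untreated and 277, 251 and 262 in KO untreated. The groups did not overlap, the 3 KO libraries lay close together, and LARP1 rose (log2 difference 0.82 ± 0.17, adjusted p = 0.00441). MTOR, the kinase upstream of LARP1, rose (log2 difference 1.21 ± 0.32, adjusted p = 0.0141). MXI1, an antagonist of MYC, fell (log2 difference -3.17 ± 0.29, adjusted p = 4.32e-05). MYC had 14.0, 16.5 and 14.6 CPM in wild type untreated and 13.2, 39.9 and 7.63 in KO untreated and did not pass (log2 difference 0.20 ± 0.52, adjusted p = 0.787). EIF4EBP1, an inhibitor of translation initiation that mTOR switches off, did not pass either (log2 difference -0.54 ± 0.34, adjusted p = 0.228). Of 15 p53 targets 7 rose and 1 fell, with TP53I3 (log2 difference 1.76 ± 0.29, adjusted p = 0.00158) and ZMAT3 (log2 difference 1.24 ± 0.23, adjusted p = 0.00283) among those that rose. The median over the 15 was 0.72 and the lowest value -3.29. Their summed level was lower in KO cells, 1678 to 2439 CPM in KO untreated against 3528 to 3858 CPM in wild type untreated.

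RNA that stays in the nucleus or the mitochondrion also differed between the untreated groups. Of 13 genes encoded in mitochondria 7 rose and none fell, and their share of counts was 2.97% to 3.80% in wild type untreated and 5.82%, 8.85% and 6.64% in KO untreated. Of 5 nuclear-retained RNAs tested 4 rose and 1 fell, and MALAT1 had 1043, 1002 and 1169 CPM in wild type untreated and 2399, 8124 and 2825 in KO untreated. In neither case did replicates 1 and 2 of KO untreated both lie on 1 side of replicate 3, and the part of these RNAs in the results on the members was not tested.

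Under copper, lists are to be read against 14.9% of all genes passed in wild type cells and 33.7% in KO cells. Leaving out 1 library gave 0 to 7 calls in wild type cells and 0 to 21 in KO cells for further ribosomal protein genes. For assembly genes it gave 2 to 16 and 5 to 23. Of all genes 6.41% to 33.1% passed in wild type cells in those fits, and 20.7% to 58.1% in KO cells. None of the 27 further ribosomal protein genes passed in wild type cells by edgeR (1 at an unadjusted p under 0.05), and none of the 24 translation factors and TOP genes (2 at an unadjusted p under 0.05). Of the 37 assembly genes 6 rose and none fell in wild type cells, a share of 16.2% against 14.9%, among them LSG1 (log2 difference 1.37 ± 0.22, adjusted p = 0.00192) and NOP58 (log2 difference 1.29 ± 0.21, adjusted p = 0.00216). In KO cells with copper, 2 of the 27 further ribosomal protein genes rose and 1 fell, 3 of the 24 TOP genes rose and 3 fell, and 10 of the 37 assembly genes rose and 6 fell, where 15.2% of all genes rose and 18.5% fell. NOP58, a core protein of the box C/D particle, rose there (log2 difference 1.51 ± 0.21, adjusted p = 0.000395). MLST8, a partner of mTOR, had 143, 141 and 52.2 CPM in KO untreated and 16.0, 19.3 and 23.5 in KO copper and fell (log2 difference -2.41 ± 0.44, adjusted p = 0.00178). The comparisons between groups share libraries, the untreated KO libraries entering 3 of the 5, so their values are not independent of each other.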

How the data were processed

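The 3′ ends of mRNA were sequenced in 12 libraries as 75 bp single-end reads, per the labels' protocols. Reads were handled with STAR 2.3.0, HTSeq and hg19, per the submitters' processing notes; no source used here gives the annotation release, the strand setting or the handling of reads that match several places. What the authors deposited are whole read counts per gene, not normalized. Symbols were found for 45776 of 47634 Ensembl identifiers (99.5% of counts).

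The test was edgeR 4.0.16 (R 4.3.3): filterByExpr, trimmed mean of M values (TMM) factors of 0.943 to 1.131, a robust quasi-likelihood fit of 4 group means over 12 libraries, and Benjamini-Hochberg adjustment over 11051 genes at 0.05. Every adjusted p is from this test unless DESeq2 is named, and values after ± in a log2 difference are SE. "Without the 3 libraries" is this test with wild type copper replicate 1 and KO untreated replicates 1 and 2 left out. The 3 were picked by the members' own share of counts, and KO untreated keeps 1 library. Calls on members in that fit are therefore not a test of them. That fit and sample quality weights (limma 3.58.1) were added after seeing the data. The other alternatives were DESeq2 1.42.0, limma voom, other scalings, no filter, a replicate block, each library left out, and only the groups compared. Log2 levels are of CPM with 0.5 added to the count. Intervals cover counting error only, since reads without molecular identifiers are not separate molecules. The procedure was tested on simulated counts in which all libraries of a group shared 1 mean per gene. A group that splits, as KO untreated does, was not simulated.

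The members and gene lists were chosen with earlier results of these data known. The rule gives in every library RPLP0, RPL5, RPL11, RPS6, RPS19 and, per comparison, the 3 members of highest and of lowest fitted value. From each list it names up to 4 genes of smallest adjusted p per comparison, tested paralogs, and MYC, LARP1, EIF4EBP1, NCL, EEF1A1, EEF2 and TPT1. Any member may be named; RPS12, RPS14, RPS20, RPS24, RPS3, RPL13, RPL24, RPL32, RPS15, RPS27 and the pseudogenes were chosen after their values were seen.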

Additional observations from a re-analysis of the deposited data

Results flagged for a closer look

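The copper effects of 12 genes of the lists differed between the KO and the wild type line by edgeR's test of the difference itself, adjusted over 11051 genes, where 4.93% of all genes did, and those of no ribosomal protein member did. All 12 differences, KO minus wild type on the log2 scale, were below 0, where 3.67% of all genes were lower and 1.26% higher. They were 4 of 15 p53 targets, 2 of 13 genes encoded in mitochondria and 2 of 74 mitochondrial ribosomal proteins. The rest were 1 of 4 paralogs, 1 of 37 assembly genes, 1 of 22 RNA polymerase genes and 1 of 22 regulators. None passed of 27 further ribosomal protein genes, 24 translation factors and TOP genes and 18 other initiation factors. The value was -2.16 ± 0.56 for RPS27L (adjusted p = 0.0481), -1.20 ± 0.30 for WDR12, an assembly factor of the large subunit (adjusted p = 0.0438), -1.78 ± 0.45 for UBTF (adjusted p = 0.0453) and -2.42 ± 0.60 for MLST8 (adjusted p = 0.0446). Among p53 targets it was -1.28 ± 0.26 for XPC (adjusted p = 0.0316), -1.44 ± 0.33 for ZMAT3 (adjusted p = 0.0387), -0.997 ± 0.24 for TP53INP1 (adjusted p = 0.0428) and -1.66 ± 0.42 for SESN1 (adjusted p = 0.0454). Among mitochondrial ribosomal proteins it was -2.40 ± 0.56 for MRPS26 (adjusted p = 0.0403) and -1.70 ± 0.41 for MRPL55 (adjusted p = 0.0416), and among genes encoded in mitochondria -1.72 ± 0.38 for MT-CO1 (adjusted p = 0.0379) and -2.50 ± 0.60 for MT-CO3 (adjusted p = 0.0416).

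Without the 3 libraries with the lowest share of counts on the members, replicate 3 was the only KO untreated library, and all 12 differences stayed below 0. The values were -0.61 for RPS27L, -0.75 for WDR12, -0.79 for UBTF, -1.09 for XPC, -0.93 for ZMAT3 and -1.21 for TP53INP1. For SESN1 it was -1.03, for MRPS26 -0.75, for MRPL55 -0.98, for MT-CO1 -1.01, for MLST8 -0.77 and for MT-CO3 -1.15. Of the 12 fits that leave out 1 library, WDR12 passed in 1 and each of the other 11 genes in 2. All 12 genes passed without KO untreated replicate 3, all but WDR12 without wild type copper replicate 3, and none in the other 10 fits. Of the 12, levels in KO untreated are given only for RPS27L, UBTF, WDR12 and MLST8, and for these replicates 1 and 2 were above replicate 3. UBTF had 219.6, 263 and 106 CPM in KO untreated, WDR12 112, 126 and 83.9 and MLST8 143, 141 and 52.2. The difference for TP53INP1 was -0.997 with all libraries, -1.01 without KO untreated replicate 3 and -1.21 without the 3 libraries.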

How the results depend on the processing

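Counts of members called moved as follows, each with the share of all genes called in the same fit, where genes with no adjusted p are left out. In wild type copper against untreated, with 0 as reported (14.9%), DESeq2 gave 2 (19.3%), no filter 5 (8.82%), only the groups compared 1 (29.2%), the fit without the 3 libraries 21 (4784 of 11955 genes) and sample quality weights 29 (49.2%), and leaving out 1 library gave 0 to 11 (6.41% to 33.1%). In KO copper against untreated, with 9 (33.7%), total counts alone gave 3 (34.1%), DESeq2 22 (38.2%), limma voom 37 (33.5%), no filter 36 (18.1%), only the groups compared 0 (17.9%), without the 3 libraries 5 (39.6%) and quality weights 48 (52.9%), and leaving out 1 library gave 0 to 46 (20.7% to 58.1%). In KO against wild type untreated, with 34 (31.9%), only the groups compared gave 1 (13.2%), and leaving out 1 library 16 to 49 (17.9% to 59.0%). In KO against wild type copper, with 1 (13.8%), DESeq2 gave 4 (18.4%), no filter 3 (8.05%), only the groups compared 5 (26.5%), without the 3 libraries 25 (37.9%) and quality weights 23 (45.5%), and leaving out 1 library 0 to 12 (5.88% to 31.2%). For the difference of copper effects, with 0 (4.93%), RLE factors gave 1 (6.28%), DESeq2 12 (18.2%), no filter 31 (9.77%), without the 3 libraries 10 (8.77%) and quality weights 49 (49.4%), and leaving out 1 library 0 to 44 (0.113% to 51.5%).

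Medians over members moved without the 3 libraries and with quality weights: to 0.12 and 1.62 for copper in KO cells, -0.58 and -2.15 for KO untreated, and 0.35 and 2.003 for the difference. Leaving out 1 library gave -0.57 to -0.29 for copper in wild type cells, 0.68 to 1.67 in KO cells, -2.20 to -1.09 for KO untreated, -0.16 to 0.18 for KO under copper and 1.05 to 2.01 for the difference. With the 20 highest genes out of the denominator the member share was 9.43% in wild type untreated, 7.78% in wild type copper and 7.61% in KO copper, where it was 6.85% without mitochondrial genes. Median log2 levels were 10.21 in wild type untreated with the 20 highest genes out, and in KO copper 9.83, then 9.68 without mitochondrial genes and 9.63 as a mean over members. A mean over members was not run for the share, since it has another unit. Leaving out 1 library gave shares of 7.995% to 8.30%, 6.10% to 6.77%, 3.26% to 4.97% and 6.09% to 6.35% in wild type untreated, wild type copper, KO untreated and KO copper.

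Some fitted values of single members changed sign, and the cause was not tested. In wild type copper, RPLP1, RPL8 and RPL35 went to -0.10, -0.075 and -0.019 without wild type copper replicate 1 (leaving out 1 library gave up to 0.15, 0.41 and 0.60), and RPLP1 and RPL8 to -0.046 and -0.019 without the 3 libraries and to -0.058 and -0.0066 with quality weights. In KO copper, RPS6 went to -0.063 with total counts and -0.0062 with no filter, and leaving out 1 library gave -0.035 to 0.13, with -0.0010 without wild type copper replicate 1 and -0.011 without KO untreated replicate 2. Without the 3 libraries RPL8 and RPL35 went to 0.040 and 0.012 in KO copper, RPL35, RPL22 and RPL8 to -0.51, -0.63 and -0.47 in KO untreated, and RPL8 and RPL22 to 0.058 and 0.31 in the difference.

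Replicate numbers were not used to pair the samples in the main test. Over genes, deviations of same-numbered libraries correlated at r from -0.185 to 0.576. Between wild type copper and KO untreated r was 0.46, -0.141 and 0.576 for replicates 1, 2 and 3, and what these groups share by replicate number was not tested. With the replicate number as a block, 0 members were called in wild type copper against untreated (13.5% of all genes) and 24 in KO copper against untreated (33.6%). In KO against wild type untreated 43 were called (31.9%), in KO against wild type copper 1 (11.5%), and for the difference of copper effects 0 (1.02%). Groups of 3, and a KO untreated group that splits, limit what these data show about size, and the shallowest library had 976658 counts.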
